A study of Mus musculus with 17 samples.

Results

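Expression of 10 genes that encode transcription factors of the mesoderm and the mesenchyme, *Eomes*, *Mixl1*, *Mesp1*, *Msx1*, *Msx2*, *Hand1*, *Hand2*, *Tbx2*, *Tbx4* and *Tbx5*, was followed in R1/E mouse embryonic stem cells during retinoic acid (RA) differentiation. The genes were taken by name from the 54532 genes for which the authors deposited TPM (transcripts scaled for gene length and library size). They were chosen with earlier results of these data known. The 6 groups were wild-type cells and *Usb1* knockout cells at day 0, where cells were kept under self-renewal conditions without RA, and after 1 and 3 days with RA. There were 2 replicate cultures for the wild-type day 0 group and 3 for every other group, which gives 17 libraries. The knockout had been made by CRISPR-Cas9, and 1 line, KO-1, was sequenced, so the loss of *Usb1* and any difference between clones cannot be told apart. The RA dose is not given in the sources used here, and RNA came from whole cultures.

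*Eomes* and *Tbx2*, *Tbx4* and *Tbx5* belong to the T-box family, whose founding member is *T* (Brachyury). EOMES, the homeodomain protein MIXL1 and the basic helix-loop-helix protein MESP1 act in the primitive streak and in the mesoderm that leaves it. The homeodomain repressors MSX1 and MSX2 and the basic helix-loop-helix proteins HAND1 and HAND2 act later, in lateral plate and extraembryonic mesoderm, limb buds, the heart and neural crest mesenchyme, and *Msx* genes are widely used as readouts of BMP signalling. TBX5 and TBX4 are known for forelimb and hindlimb outgrowth, TBX5 also for the heart, and TBX2 is a repressor in the heart, limb and lung. RA is a teratogen and morphogen that drives stem cells out of self-renewal, and USB1 is the exonuclease that trims the tail of U6 spliceosomal RNA.

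The promoters of *Msx1*, *Msx2*, *Hand2* and *Eomes* are shown because these genes had the courses that differ most in what follows, namely early, graded, late and transient. Each window runs from 250 bases before to 50 bases after the RefSeq gene start on GRCm38.p6, in the direction of transcription. Capitals mark matches, on either strand, to any of 7 short motifs that were searched: the nuclear receptor element AGGTCA, the Smad element GGCGCC, the GATA element AGATAA, the T-box element AGGTGT, the homeodomain element TAATTA, the TATA box TATAAA and the Hand E-box CATCTG.
Msx1: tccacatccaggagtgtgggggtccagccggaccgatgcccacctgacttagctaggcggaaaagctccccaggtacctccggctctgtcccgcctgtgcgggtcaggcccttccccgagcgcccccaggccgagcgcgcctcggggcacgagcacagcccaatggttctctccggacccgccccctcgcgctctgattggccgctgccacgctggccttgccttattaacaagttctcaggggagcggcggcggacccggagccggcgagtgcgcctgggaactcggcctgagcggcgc
Msx2: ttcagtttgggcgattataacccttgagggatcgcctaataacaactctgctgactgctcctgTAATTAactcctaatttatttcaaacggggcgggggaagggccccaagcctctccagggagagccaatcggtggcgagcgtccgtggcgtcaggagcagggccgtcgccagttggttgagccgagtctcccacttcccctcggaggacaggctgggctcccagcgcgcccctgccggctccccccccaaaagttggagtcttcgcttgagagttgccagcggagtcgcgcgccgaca
Hand2: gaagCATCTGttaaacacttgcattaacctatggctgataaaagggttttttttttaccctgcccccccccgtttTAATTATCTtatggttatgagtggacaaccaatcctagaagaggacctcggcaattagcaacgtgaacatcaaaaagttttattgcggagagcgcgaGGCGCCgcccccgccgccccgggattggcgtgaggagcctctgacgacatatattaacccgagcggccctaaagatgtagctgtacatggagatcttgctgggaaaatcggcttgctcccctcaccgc
Eomes: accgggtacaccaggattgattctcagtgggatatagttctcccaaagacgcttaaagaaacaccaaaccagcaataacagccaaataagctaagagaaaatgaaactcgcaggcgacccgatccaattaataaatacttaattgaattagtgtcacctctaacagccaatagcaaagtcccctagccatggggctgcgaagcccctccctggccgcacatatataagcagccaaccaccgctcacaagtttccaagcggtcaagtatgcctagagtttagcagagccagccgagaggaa
The windows lie at chr5:37824536-37824835 on the minus strand (*Msx1*), chr13:53472731-53473030 on the minus strand (*Msx2*), chr8:57320733-57321032 on the plus strand (*Hand2*) and chr9:118477939-118478238 on the plus strand (*Eomes*). GC content was 70.0% for *Msx1*, 61.0% for *Msx2*, 50.3% for *Hand2* and 47.3% for *Eomes*, against a median of 52.7% over the 32851 mouse promoter windows. The *Msx2* window held the homeodomain element from -187 to -182 relative to the RefSeq start, and 5.29% of all windows held this motif on either strand. This window lies wholly within the GENCODE M21 bounds of *Msx2* (chr13:53466884-53473074), so the element is upstream of the RefSeq start only. The *Hand2* window held the Smad element from -78 to -73 (11.9% of windows), the Hand E-box from -246 to -241 (17.2% of windows), and the homeodomain element from -175 to -170, which overlaps the GATA element on the other strand from -172 to -167 (11.2% of windows). The *Msx1* and *Eomes* windows held no exact match to any of the 7 motifs, and variants such as other forms of the TATA box were not searched. Of the 10 genes, 6 had an entry in this table, *Tbx4* and *Mesp1* being the others.

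Reads on genes, recovered from the TPM values, ranged from 15404379 to 17300186 over the libraries. *Usb1* itself, as a check of the labels, ranged from 32.0 to 56.9 TPM over the wild-type libraries and from 14.7 to 21.4 TPM over the knockout libraries, without overlap. Wild-type replicate 1 at day 0 stood apart in its lowest values, with 239 genes at 1 read against 1352 in replicate 2, and *Tbx2*, *Tbx4* and *Mixl1*, listed at 0 in that library, had 13 to 25 reads in the other. Knockout replicate 1 at day 3 had 1224 genes at 1 read, against 2428 and 2467 in the other libraries of its group. A 0 listed in a library short of low values may not be a count of 0. Genes with at least 1 TPM in at least 2 libraries were tested with limma on log2(TPM + 1), a scale that understates the change of genes of low TPM. Genes with an adjusted p (Benjamini-Hochberg) under 0.05 and a difference of at least 2-fold were called, and each ± after a log2 difference is its standard error (SE). Of the 10 genes, 8 were tested. *Mesp1* and *Tbx5* did not reach the minimum. Because whole cultures were measured, fewer cells that express a gene and less RNA of it per cell cannot be told apart.

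*Eomes*, which like *Msx1* and *Msx2* had reads in every library, was highest at day 1 in both genotypes. *Eomes* (ENSMUSG00000032446, chr9:118478212-118486132, plus strand) had 2.62 and 3.75 TPM in the wild-type libraries of day 0, 4.87, 4.96 and 3.98 TPM in those of day 1, and 1.92, 1.93 and 2.51 TPM in those of day 3. In *Usb1* knockout cells the values were 3.02, 2.17 and 2.35 TPM before RA, then 5.87, 6.68 and 5.59 TPM, and then 1.86, 2.30 and 2.71 TPM. Within each genotype the day 1 libraries were all above those of the other days.

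In *Usb1* knockout cells *Eomes* rose from day 0 to day 1 (log2 difference 1.01 ± 0.17, adjusted p = 3.75e-04, limma) and fell from day 1 to day 3 by 1.10 ± 0.17 on the log2 scale (adjusted p = 7.23e-05). In wild-type cells the difference was 0.43 ± 0.19 from day 0 to day 1 (adjusted p = 0.0865) and -0.84 ± 0.17 from day 1 to day 3 (adjusted p = 7.81e-04, short of 2-fold). The difference between the genotypes in the change from day 0 to day 1 was 0.58 ± 0.25 and did not pass the test (adjusted p = 0.244). At day 1 the 3 knockout libraries were above the 3 wild-type libraries, with a log2 difference of 0.33 ± 0.17 that did not pass either (adjusted p = 0.205). The call from day 0 to day 1 in knockout cells was just past 2-fold and was lost when knockout replicate 2 or 3 at day 0 or replicate 2 at day 1 was left out (0.94 to 0.98) or the medians were set equal (0.93). An antisense gene, *Gm33460*, overlaps the end of *Eomes*, and since the library kit does not mark strand, reads in the overlap cannot be assigned. *Gm33460* averaged 2.11, 2.16 and 2.35 TPM in wild-type cells at day 0, 1 and 3 and 4.66, 4.70 and 2.58 TPM in knockout cells, and its part in the *Eomes* values was not tested.

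*Mixl1*, a target of Nodal signalling in the streak (ENSMUSG00000026497, chr1:180693043-180697034, minus strand), was low and was lowest at day 3. Its wild-type libraries had 0 and 1.28 TPM at day 0, 1.15, 0.833 and 0.576 TPM at day 1, and 0, 0.368 and 0.506 TPM at day 3. Its knockout libraries had 2.36, 1.46 and 1.51 TPM at day 0, 1.57, 2.03 and 2.68 TPM at day 1, and 0, 0.794 and 0.742 TPM at day 3. The knockout libraries were above the wild-type libraries at day 0 and day 1 and overlapped them at day 3.

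The genotype differences of *Mixl1*, 0.86 ± 0.35 at day 0 (adjusted p = 0.132) and 0.74 ± 0.32 at day 1 (adjusted p = 0.135), did not pass the test. Without wild-type replicate 2 at day 0, which leaves the library listed at 0, *Mixl1* was called at day 0 (log2 difference 1.46, adjusted p = 0.0139), in a fit where that lone library is assumed to vary like the other groups. With quantile normalization it was called at day 1 (1.00, adjusted p = 0.0219). In knockout cells *Mixl1* fell from day 1 to day 3 by 1.07 ± 0.32 on the log2 scale (adjusted p = 0.0130), a call that was lost without knockout replicate 1 at day 3 (-0.79, adjusted p = 0.0646) or replicate 3 at day 1 (-0.93, adjusted p = 0.0555) and, with a larger difference and SE, with a pseudocount of 0.1 (-2.35 ± 0.99, adjusted p = 0.0721). Knockout replicate 1 at day 3 is the library in which *Mixl1* was listed at 0, and it was short of low values, as given above. The wild-type difference from day 1 to day 3 was -0.53 ± 0.32 (adjusted p = 0.203).

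*Mesp1*, a marker of the earliest cardiac mesoderm (ENSMUSG00000030544, chr7:79792241-79793788, minus strand), was near the limit of detection throughout. It had 0 to 10 reads per library, the highest being 1.67 TPM in wild-type replicate 2 at day 1, while the other 16 libraries were between 0 and 0.821 TPM. No direction was read from its values, since all neighbouring groups overlapped. At this depth 3 reads of *Mesp1*, the limit that a count of 0 allows, correspond to 0.452 to 0.546 TPM, which covers counting error only.

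**Figure D1:**
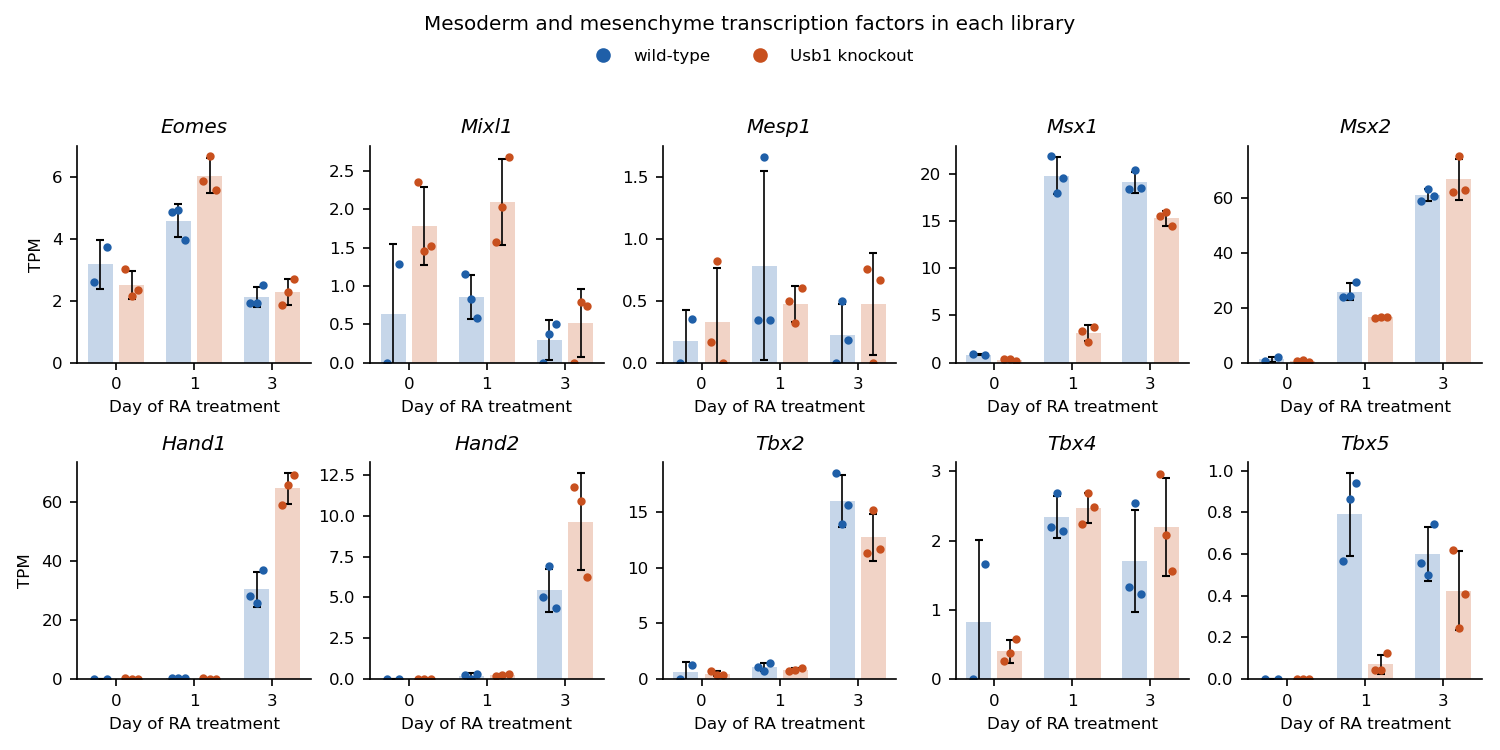
TPM of the 10 genes in each library (points), with the group mean (bar) and SD (line, cut at 0), by day of RA treatment for wild-type (2 libraries at day 0, otherwise 3) and *Usb1* knockout cells; each panel has its own axis. *Msx1* reached 18.0 to 21.9 TPM by day 1 in wild-type cells but 2.16 to 3.78 TPM in knockout cells, and at day 3 *Hand1* ran from 25.9 to 37.1 TPM in wild-type cells and from 59.2 to 69.5 TPM in knockout cells.

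*Msx1* and *Msx2* rose within a day of RA, by more than the other tested members on log2(TPM + 1). *Msx1* (ENSMUSG00000048450, chr5:37820485-37824583, minus strand) had 0.879 and 0.802 TPM in the wild-type libraries of day 0, 21.9, 18.0 and 19.6 TPM in those of day 1, and 18.4, 20.4 and 18.5 TPM in those of day 3. Knockout libraries held 0.350, 0.338 and 0.140 TPM before RA, 3.36, 2.16 and 3.78 TPM after 1 day, and 15.5, 15.9 and 14.4 TPM after 3 days. The wild-type course thus reached its level by day 1, whereas the knockout course was still below it at day 1 and nearer to it at day 3.

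In wild-type cells *Msx1* rose by 3.49 ± 0.17 (log2) from day 0 to day 1 (adjusted p = 1.36e-09), a 23.6-fold ratio of mean TPM, with no change that passed the test from day 1 to day 3 (-0.05 ± 0.15, adjusted p = 0.841). In knockout cells it rose by 1.67 ± 0.15 from day 0 to day 1 (adjusted p = 1.16e-06), an 11.2-fold ratio of mean TPM. It rose again by 2.01 ± 0.15 from day 1 to day 3 (adjusted p = 4.92e-08), 4.94-fold in mean TPM. The genotypes differed at day 1, where knockout cells held 3.10 ± 0.840 TPM (SD, n = 3) and wild-type cells 19.8 ± 1.96 TPM (SD, n = 3), a log2 difference of -2.36 ± 0.15 (adjusted p = 2.27e-07). The knockout libraries were also the lower ones, without overlap, at day 0 (-0.53 ± 0.17, adjusted p = 0.0531) and at day 3 (-0.30 ± 0.15, adjusted p = 0.300), but these differences did not pass the test. The difference between the effects at day 1 and day 3 was not tested.

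The response of *Msx1* from day 0 to day 1 itself differed between genotypes on log2(TPM + 1), by -1.83 ± 0.22 (adjusted p = 0.00115). This call depended on how the day 0 values, 2 to 13 reads per library, were treated: it was lost with a pseudocount of 0.1 (-1.29, adjusted p = 0.0880) and with voom on the recovered reads (-1.09, adjusted p = 0.365 with the filter on low values and 0.397 without it), while the difference at day 1 was called in every setting in which *Msx1* was tested. *Msx1* was the only member called at day 1, where 2.22% of all genes tested were called, and the only one called for this interaction, where 0.86% were.

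*Msx2* (ENSMUSG00000021469, chr13:53466884-53473074, minus strand) rose in steps and was the most abundant member in wild-type cells at day 3. The wild-type libraries had 0.575 and 1.86 TPM at day 0, 24.0, 24.3 and 29.4 TPM at day 1, and 59.0, 63.4 and 60.8 TPM at day 3. The knockout libraries had 0.661, 0.766 and 0.331 TPM at day 0, 16.4, 16.6 and 16.5 TPM at day 1, and 62.1, 75.3 and 63.1 TPM at day 3. Only at day 1 did the genotypes not overlap.

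*Msx2* rose in wild-type cells by 3.66 ± 0.20 (log2) from day 0 to day 1 (adjusted p = 4.21e-09) and by 1.21 ± 0.17 from day 1 to day 3 (adjusted p = 4.69e-05). In knockout cells it rose by 3.47 ± 0.17 (adjusted p = 2.69e-09) and then by 1.95 ± 0.17 (adjusted p = 3.76e-07). At day 1 the knockout mean was 16.5 ± 0.0686 TPM and the wild-type mean 25.9 ± 3.03 TPM (SD, n = 3 each), a log2 difference of -0.62 ± 0.17 with an adjusted p of 0.0267 that fell short of 2-fold and was not called. The difference at day 3 was 0.12 ± 0.17 (adjusted p = 0.808).

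*Hand1* and *Hand2* were at or near 0 until day 3. *Hand1* (ENSMUSG00000037335, chr11:57828705-57832818, minus strand) was listed at 0 in both wild-type libraries at day 0. It had 0.440, 0.213 and 0.221 TPM at day 1, from 2 to 4 reads, and 28.4, 25.9 and 37.1 TPM at day 3. In knockout cells it had 0.434, 0 and 0 TPM at day 0, 0.212, 0.101 and 0.0961 TPM at day 1, from 1 or 2 reads, and 59.2, 65.9 and 69.5 TPM at day 3. All 6 libraries at day 3 stood far above the 11 earlier ones, and at day 3 the knockout libraries stood above the wild-type libraries.

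*Hand1* rose from day 1 to day 3 by 4.59 ± 0.18 (log2) in wild-type cells (adjusted p = 4.85e-11) and by 5.85 ± 0.18 in knockout cells (adjusted p = 3.83e-12). It reached 1 TPM in 6 libraries only, those of day 3, and so passed the filter through the group where it is high. The tests of its rise to day 3 are therefore descriptive and not independent of the filter. Means at day 3 were 64.8 ± 5.23 TPM for the knockout and 30.4 ± 5.85 TPM for wild-type cells (SD, n = 3 each), 2.13-fold higher in the knockout (log2 difference 1.08 ± 0.18, adjusted p = 0.00167). *Hand1* was the only member called at day 3, where 1.29% of all genes tested were called. The call was lost without wild-type replicate 2 at day 3 (0.97, adjusted p = 0.0124), which is short of 2-fold, and with a pseudocount of 0.1, where the difference was as large but its SE larger (1.10 ± 0.54, adjusted p = 0.305). With voom on the recovered reads it was called (1.11 ± 0.12, adjusted p = 2.00e-06). The genotype difference in the change from day 0 to day 3 was 0.91 ± 0.27 and did not pass the test (adjusted p = 0.0604), and with voom it was 0.01 ± 1.04 (adjusted p = 0.998). No member passed that interaction, for which 2.42% of all genes were called.

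*Hand2* (ENSMUSG00000038193, chr8:57320983-57324633, plus strand) was listed at 0 in all 5 libraries at day 0. At day 1 the wild-type libraries held 0.280, 0 and 0.281 TPM and the knockout libraries 2, 3 and 4 reads. At day 3 the wild-type libraries held 5.06, 6.92 and 4.34 TPM and the knockout libraries 11.8, 10.9 and 6.24 TPM. The lowest knockout library at day 3 was thus within the wild-type range.

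*Hand2* rose from day 1 to day 3 by 2.43 ± 0.22 (log2) in wild-type (adjusted p = 4.90e-07) and by 3.04 ± 0.22 in knockout cells (adjusted p = 4.34e-08). Like *Hand1*, it passed the filter through its 6 libraries of day 3 only, so these tests are descriptive. The genotype difference at day 3 was 0.70 ± 0.22 and did not pass the test (adjusted p = 0.0768). The antisense gene that overlaps *Hand2*, listed as *AV026068*, reached no more than 0.0658 TPM.

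*Tbx2* was the T-box member that joined the *Hand* genes at day 3. *Tbx2* (ENSMUSG00000000093, chr11:85832551-85841948, plus strand) had 0 and 1.25 TPM in wild-type cells at day 0, 1.09, 0.761 and 1.46 TPM at day 1, and 18.5, 13.9 and 15.7 TPM at day 3. Its knockout libraries had 0.717, 0.404 and 0.359 TPM at day 0, 0.702, 0.838 and 1.01 TPM at day 1, and 11.4, 15.2 and 11.7 TPM at day 3. The genotypes overlapped at every day.

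From day 1 to day 3 *Tbx2* rose by 3.02 ± 0.25 (log2) in wild-type (adjusted p = 1.85e-07) and by 2.89 ± 0.25 in knockout cells (adjusted p = 2.97e-07), 14.5-fold and 15.0-fold in mean TPM. The genotype difference at day 3 was -0.31 ± 0.25 (adjusted p = 0.597).

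*Tbx4* (ENSMUSG00000000094, chr11:85886422-85916097, plus strand) lies 44474 bases beyond the end of *Tbx2* but had another course, with its higher levels already at day 1. Its wild-type libraries had 0 and 1.66 TPM at day 0, 2.20, 2.68 and 2.14 TPM at day 1, and 1.33, 2.55 and 1.23 TPM at day 3. Its knockout libraries had 0.255, 0.369 and 0.574 TPM at day 0, 2.25, 2.68 and 2.48 TPM at day 1, and 2.96, 2.07 and 1.56 TPM at day 3. The levels at day 1 and day 3 overlapped in both genotypes.

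In knockout cells *Tbx4* rose by 1.31 ± 0.30 (log2) from day 0 to day 1 (adjusted p = 0.00462) and stood 1.18 ± 0.30 above day 0 at day 3 (adjusted p = 0.00446), the latter short of 2-fold with the medians set equal (0.90, adjusted p = 0.0268). The rise in wild-type cells from day 0 to day 1, 1.03 ± 0.34 (adjusted p = 0.0272), was 0.32 (adjusted p = 0.463) without wild-type replicate 1 at day 0, the library listed at 0. That fit has 1 wild-type library at day 0, which is assumed to vary like the other groups. The call was also lost without replicate 1 or 2 at day 1 (1.06 and 0.96, adjusted p = 0.0506 and 0.0723), with quantile normalization (0.68, adjusted p = 0.126), with equal medians (0.85, adjusted p = 0.0782) and with the libraries of the comparison alone (1.03, adjusted p = 0.197).

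*Tbx5* (ENSMUSG00000018263, chr5:119832668-119885219, plus strand) had no more than 20 reads in any library and never reached 1 TPM. All 5 libraries at day 0 were listed at 0, among them wild-type replicate 1, whose lowest values stood apart. At day 1 the wild-type libraries had 12, 19 and 20 reads (0.564, 0.863 and 0.942 TPM) and the knockout libraries 1, 1 and 3 reads (0.0454, 0.0434 and 0.123 TPM). At day 3 the ranges overlapped, with 12, 11 and 15 reads in wild-type and 15, 5 and 9 reads in knockout libraries.

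Since *Tbx5* was below the minimum level, its difference at day 1 was seen only in settings without that filter. In limma on log2(TPM + 1) without the filter it was -0.74 ± 0.11 (adjusted p = 8.92e-04), short of 2-fold on that scale, and in voom on the recovered reads, chosen after seeing the data, it was -3.10 ± 0.53 (adjusted p = 7.11e-04). The plot of reads shows the low numbers behind these values. With all day 0 libraries listed at 0, the difference between genotypes in the change from day 0 to day 1 restates the day 1 difference. It was -0.74 ± 0.17 in limma without the filter, which did not pass the test (adjusted p = 0.0530), and -3.15 ± 0.65 in that voom fit (adjusted p = 0.0176).

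**Figure D2:**
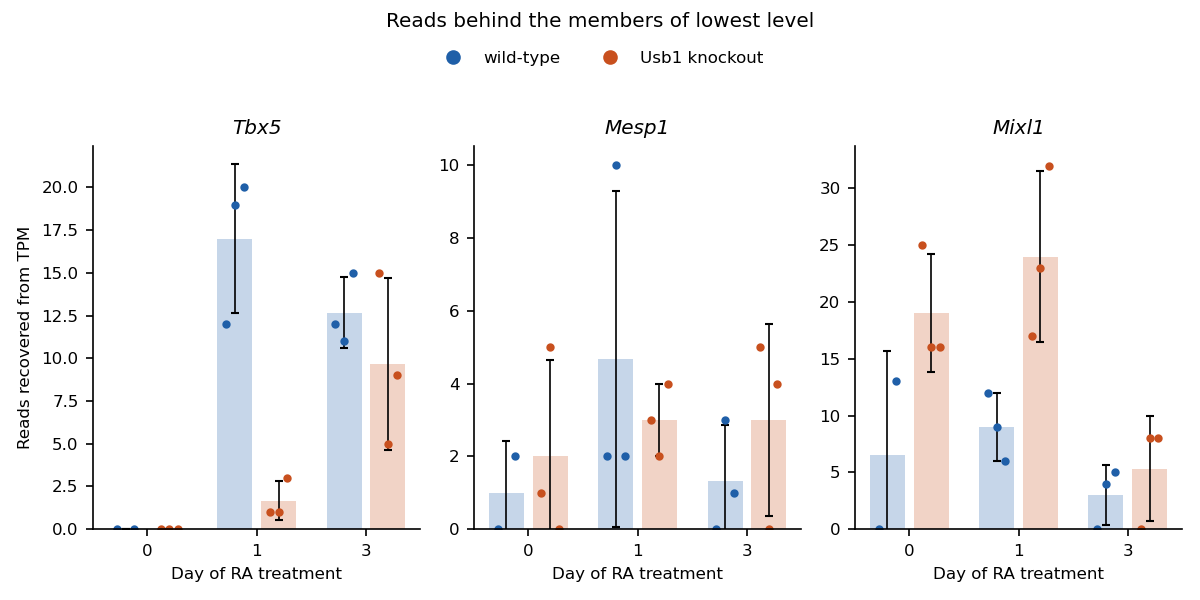
Reads recovered from TPM for *Tbx5*, *Mesp1* and *Mixl1* in each library (points), with the group mean (bar) and SD (line, cut at 0), by day of RA treatment and genotype. At day 1 *Tbx5* had 12 to 20 reads in wild-type and 1 to 3 reads in knockout libraries, and *Mesp1* had at most 10 reads in any library.

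Per length, the order of the mean levels in wild-type cells at day 3 was *Msx2* (61.1 TPM), *Hand1* (30.4 TPM), *Msx1* (19.1 TPM), *Tbx2* (16.0 TPM), *Hand2* (5.44 TPM), *Eomes* (2.12 TPM) and *Tbx4* (1.70 TPM). *Mixl1* (0.291 TPM), *Tbx5* (0.599 TPM) and *Mesp1* (0.226 TPM) were below 1 TPM. In knockout cells at day 3 *Hand1* (64.8 TPM) stood level with *Msx2* (66.8 TPM), their libraries overlapping. For *Msx1* the order of the groups ran from wild-type day 1 and wild-type day 3, which overlapped, through knockout day 3, knockout day 1 and wild-type day 0 to knockout day 0, none of which overlapped its neighbour.

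Counted over the 8 members tested, none was called between the genotypes at day 0, where 3.05% of all genes were called. From day 0 to day 1, *Msx1*, *Msx2* and *Tbx4* rose in wild-type cells (3 of 8, against 13.9% of all genes called, 9.99% higher and 3.88% lower), and *Msx1*, *Msx2*, *Tbx4* and *Eomes* rose in knockout cells (4 of 8, against 6.95% called, 4.07% higher and 2.87% lower). From day 0 to day 3, *Hand1*, *Hand2*, *Tbx2*, *Msx1* and *Msx2* rose in wild-type cells (5 of 8, against 25.8% called, 16.1% higher and 9.68% lower), and these with *Tbx4* rose in knockout cells (6 of 8, against 21.9% called, 13.8% higher and 8.04% lower). From day 1 to day 3, 4 of 8 were called in wild-type cells, all higher, where 15.2% of all genes were called. In knockout cells 7 of 8 were called, 5 higher and 2 lower, where 15.3% of all genes were called. *Msx1* was among the 5 in knockout cells but not among the 4 in wild-type cells. *Hand1* and *Hand2* passed the filter on low values through their day 3 libraries only. The members were also chosen with earlier results of these data known. These shares therefore describe the list and do not support a change in it.

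**Figure D3:**
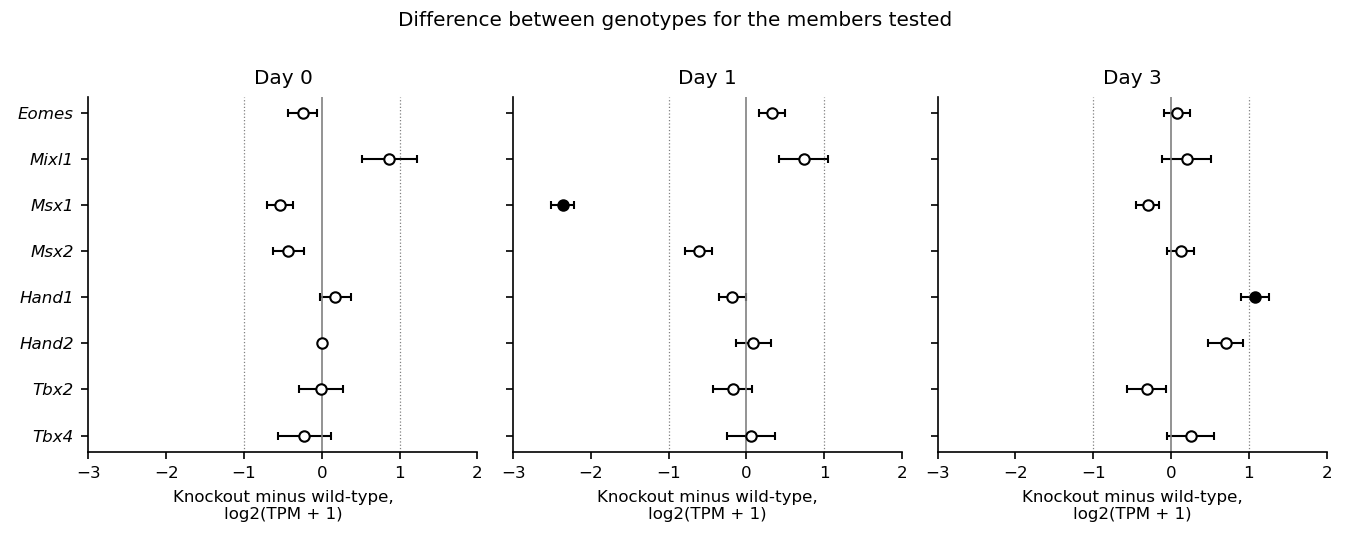
Difference between *Usb1* knockout and wild-type cells on log2(TPM + 1) with its SE for the 8 members tested, at day 0, 1 and 3; filled points were called and dotted lines mark a 2-fold difference. *Msx1* at day 1 (-2.36) and *Hand1* at day 3 (1.08) are the called points, and *Hand2* at day 0 was listed at 0 in all libraries.

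Genes of the same tissues were counted in lists drawn from general knowledge but with earlier results of these data known. From day 0 to day 3, 16.1% of all genes tested rose and 9.68% fell in wild-type cells. In knockout cells 13.8% rose and 8.04% fell, and these shares are the background for each list below. A listed gene could pass the filter on low values through its day 3 libraries alone. The counts and medians therefore describe the lists and do not support a change in them. Of 16 tested genes of lateral plate, cardiac and limb mesoderm, 11 rose and 1 fell in wild-type cells from day 0 to day 3 (median log2 difference 2.13, against 0.10 over all genes tested). The largest were *Foxf1*, a lateral plate forkhead gene (5.86), *Gata6* (5.42), *Gata4* (5.07) and *Irx3* (5.05). In knockout cells 10 rose and none fell (median 1.82, against 0.03), among them *Foxf1* (6.09), *Irx3* (5.82) and *Gata6* (5.38). *Gata4* and *Gata6* are endoderm genes as well and also stand in the endoderm marker list.

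Of 17 mesenchyme genes tested, 11 rose and 1 fell in wild-type cells from day 0 to day 3 (median 1.68), and 14 rose and 1 fell in knockout cells (median 1.95). The risers included *Cdh2*, N-cadherin (3.81 in wild-type and 4.49 in knockout), *Pdgfra*, the PDGF receptor of mesenchymal cells (3.31 and 3.75), and *Cdh11* in wild-type (2.57) and *Foxc2* in knockout cells (3.62). The gene that fell in both was *Tcf15*, a basic helix-loop-helix gene of the somites that stem cells also express, by 5.08 on the log2 scale in wild-type and by 4.02 in knockout cells. *Prrx1*, a defining gene of limb mesenchyme, averaged no more than 0.397 TPM in any group.

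Primitive streak genes did not move one way. Of 15 tested, 3 rose and 4 fell in wild-type cells from day 0 to day 3 (median 0.59), and 3 rose and 2 fell in knockout cells (median 0.43). The Wnt target *Sp5* (2.53 in wild-type, 2.59 in knockout) and *Cdx2* (2.46 and 2.41) rose, and *Wnt3* rose too (1.50 and 2.67), while *Nodal* fell by 1.90 in wild-type cells. *Cdx1*, an RA-responsive caudal gene, rose from day 0 to day 1 (2.37 and 3.22). *T* itself averaged 1.73 TPM at most, in wild-type cells at day 0, and 0.0920 and 0.0983 TPM at day 3 in wild-type and knockout cells.

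Among 7 other T-box genes tested, *Tbx20* (1.09) and *Tbx1* (1.02) rose and *T* fell by 1.09 in wild-type cells from day 0 to day 3, and none was called in knockout cells (medians 0.50 and 0.50). *Tbx3*, which stem cells express, was the most abundant T-box gene, with 171 ± 2.63 TPM (SD, n = 2) in wild-type cells at day 0 and 223 ± 15.8 TPM (SD, n = 3) at day 3. Of 11 BMP readouts, 7 rose and 1 fell in wild-type (median 3.07) and 7 rose and none fell in knockout cells (median 2.54), among them the inhibitory Smad gene *Smad6* (3.95 and 3.27), *Bambi*, a BMP pseudoreceptor (3.30 and 3.73), and *Id2* (3.14 and 3.59). The ligand gene *Bmp2* rose by 3.67 in wild-type cells. Of 10 Nodal and Wnt readouts, 3 rose and 4 fell in wild-type (median 0.13) and 4 rose and 3 fell in knockout cells (median 0.59), with *Tdgf1*, the Nodal co-receptor, which fell by 6.55 on the log2 scale in wild-type and by 5.27 in knockout cells. Of 11 partner and related genes of *Hand* and *Msx*, 7 and 8 rose and none fell (medians 1.36 and 1.43), among them the homeobox genes *Dlx5* (2.64 and 3.04) and *Dlx3* (2.40 and 2.90). *Id1*, *Id2* and *Id3* stand both in this list and among the BMP readouts, so the counts of these lists are not separate.

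**Figure D4:**
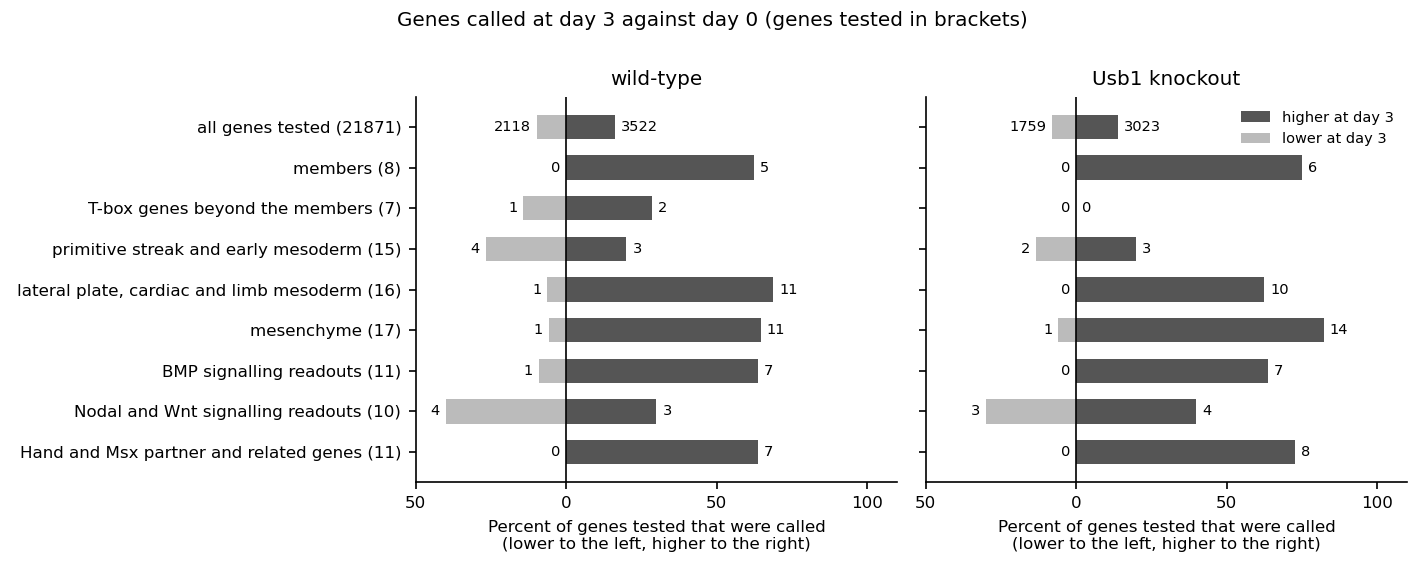
Percent of the tested genes of each list that were called higher (right) or lower (left) at day 3 against day 0, in wild-type and *Usb1* knockout cells, with the number of genes called at each bar and the number tested in brackets. Lists of lateral plate, mesenchyme, BMP readout and *Hand* and *Msx* related genes lie mostly to the right, with 7 to 14 genes higher, and streak genes lie on both sides. The BMP readout and the *Hand* and *Msx* related lists share *Id1*, *Id2* and *Id3*. A gene could pass the filter on low values through its day 3 libraries alone, so the percentages are descriptive.

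Between the genotypes, few genes of these lists were called. Of all genes tested, 3.05% were called at day 0, 2.22% at day 1 and 1.29% at day 3. For the interaction from day 0 to day 1, 0.86% were called. At day 1, where the median over all genes was -0.13, 1 of 16 lateral plate genes was lower in knockout cells, *Gata6* (-1.71, adjusted p = 1.32e-07), with a list median of -0.13. Of 11 related genes, *Dlx5* was lower (-1.69, adjusted p = 2.30e-04; list median -0.32), with 0.606 ± 0.379 TPM in knockout against 4.14 ± 1.05 TPM in wild-type cells (SD, n = 3 each). Of 17 mesenchyme genes, 1 was higher and 2 were lower, *Vim*, vimentin (-1.50), and *Prrx2* (-1.29), with a median of -0.11. No streak, T-box or BMP readout gene was called at day 1 (medians -0.02, -0.23 and -0.23), and 1 of 10 Nodal and Wnt readouts was, *Lefty2*, a Nodal inhibitor and target, which was higher in knockout cells (median of the list -0.01). Summed over all listed genes, these lists did not overlap between the genotypes at day 1. BMP readouts summed to 867 to 917 TPM in knockout against 1388 to 1515 TPM in wild-type libraries. Other T-box genes summed to 220 to 258 TPM against 361 to 417 TPM. Streak genes (284 to 318 TPM against 242 to 259 TPM) and Nodal and Wnt readouts (1645 to 1898 TPM against 1024 to 1167 TPM) were higher in the knockout. *Dlx5* (-1.84), *Dlx3* (-1.09) and *Id3* (-1.01) were called for the interaction from day 0 to day 1, as *Msx1* was.

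At day 3, where the median over all genes was 0.00, the mesenchyme genes *Meox1* (1.72, adjusted p = 5.61e-04) and *Foxc2* (1.60, adjusted p = 0.00761) were higher in knockout cells, 2 of 17 with a list median of 0.58. *Gata4* was lower (-1.73, adjusted p = 6.35e-04), 1 of 16 lateral plate genes with a median of -0.16. *Dlx3* was higher (1.23; list median 0.02), as were *Sp5* (1.20; streak median 0.00), *Lefty1* (1.21) and *Lefty2* (1.12), the last 3 being the called genes of the Nodal and Wnt readouts (median 0.80). No BMP readout or other T-box gene was called (medians -0.10 and -0.06). The BMP readouts summed to 1621 to 1821 TPM in knockout against 1856 to 2040 TPM in wild-type libraries. The other T-box genes summed to 245 to 308 TPM and 265 to 324 TPM, which overlapped. At day 0, 2 mesenchyme genes were higher, *Twist1* (1.42) among them, and 2 were lower, *Vim* (-1.42) and *Prrx2* (-1.11). Also at day 0, *Sp5* (1.14) was higher and *Wnt3* (-1.01) lower among the streak genes, *Id4* (1.06) was higher among the BMP readouts, and *Lefty2* (1.23) and *Sp5* were higher among the Nodal and Wnt readouts.

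Markers of other cell types moved beside these genes. The shares of all genes called between the genotypes were 3.05% at day 0, 2.22% at day 1 and 1.29% at day 3. Of 12 primitive and visceral endoderm markers, 3 were lower in knockout cells already at day 0, 7 at day 1 and 7 at day 3. Their summed level at day 0 was 30.9 to 47.3 TPM in wild-type against 15.5 to 20.5 TPM in knockout libraries. It was 118 to 123 TPM in wild-type against 30.1 to 35.1 TPM in knockout libraries at day 1, and 879 to 972 TPM against 427 to 498 TPM at day 3. Of 8 trophoblast markers tested, 1 was higher in knockout cells at day 0, *Plet1* (1.35), none was called at day 1 and 2 were higher at day 3, *Ascl2* (1.83) and *Tfap2c* (1.76). All 11 markers of that list summed to between 24.2 and 33.9 TPM in the wild-type libraries of day 0 and to between 47.6 and 48.9 TPM in the knockout libraries, and to between 105 and 118 TPM in the wild-type libraries of day 3 and to between 168 and 172 TPM in the knockout libraries. The placental markers *Tpbpa* and *Prl3d1* were at 0 in all 17 libraries, and *Elf5* averaged at most 0.0333 TPM in any group. Their part in the *Msx1* and *Hand1* results was not tested.

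Of 5 tested fibroblast markers, which feeder cells would carry, none was called between the genotypes at day 1 and *Col3a1* was higher in knockout cells at day 3 (1.10). All 8 markers of that list summed to 4.79 to 9.38 TPM over the day 0 libraries and, at day 3, to 44.5 to 54.2 TPM in wild-type cells against 71.7 to 80.7 TPM in the knockout. Of 6 stem cell markers, *Nanog* (1.90) and *Esrrb* (1.76) were higher in knockout cells at day 3 and *Esrrb* (1.09) at day 1, and the summed level at day 3 ran from 312 to 353 TPM in wild-type cells and from 510 to 578 TPM in the knockout. Of 6 neural crest markers tested, *Sox9* (1.09) was higher at day 3, and *Sox10* and *Pax3* averaged no more than 0.954 TPM and 0.111 TPM in any group. Of 5 cardiomyocyte markers tested, *Myl7*, an atrial myosin light chain, was lower at day 3 (-1.36), while *Tnnt2*, cardiac troponin T, averaged no more than 0.431 TPM in any group. All 6 cardiomyocyte markers summed to 173 to 184 TPM in wild-type cells and 67.4 to 79.4 TPM in the knockout at day 3. At day 1 the order was the other way, with 71.5 to 80.3 TPM in wild-type and 83.9 to 97.0 TPM in knockout libraries. None of 4 neural progenitor markers was called between the genotypes.

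**Figure D5:**
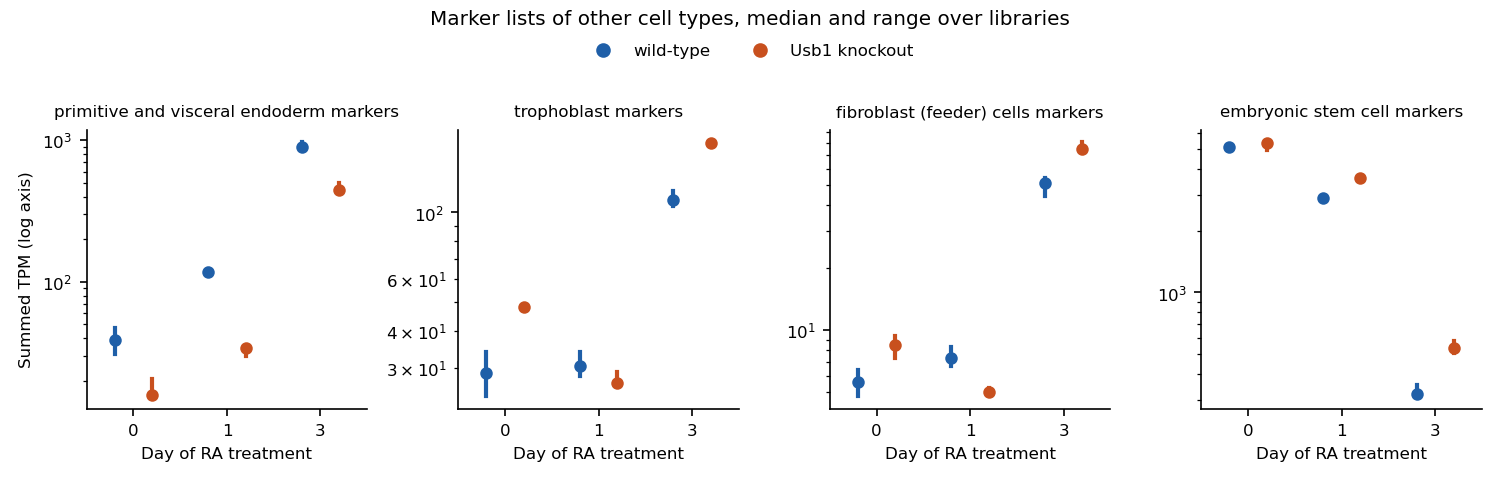
Summed TPM of marker lists for primitive and visceral endoderm, trophoblast, fibroblasts and embryonic stem cells, on log axes, as the median (point) and range (line) over the libraries of each group, by day of RA treatment. Endoderm markers summed to 879 to 972 TPM in wild-type cells at day 3 and to 427 to 498 TPM in the knockout, and each other list shown was higher in the knockout at day 3.

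Finally, the genes whose profile was most like that of each member with at least 5 TPM in at least 2 libraries were listed, by Pearson's r of log2(TPM + 1) over the 17 libraries among 14484 protein-coding genes, as a description of shared libraries and days. For *Hand1* these were *Col1a2*, a type I collagen gene (0.996), *Hoxc9* (0.996) and *Osr1*, a gene of lateral plate and kidney mesoderm (0.996). *Osr1* was at 0 in all libraries at day 0 and at day 3 averaged 4.18 ± 0.476 TPM in wild-type cells and 6.21 ± 0.376 TPM in the knockout (SD, n = 3 each). For *Hand2* they were *Hcrtr1* (0.989), the placenta-enriched gene *Plac1* (0.988) and *Col1a2* (0.988).

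For *Tbx2* the closest profiles were *Fhl2* (0.993), *Dlgap4* (0.992) and *App*, the amyloid precursor gene (0.990). Those of *Msx2* included *Adgra2* (0.993) and *Maged1* (0.991). *Msx1* was closest to *Gpr153* (0.982), *Stx2* (0.982) and *Cacnb3* (0.981), of which *Gpr153* at day 1 averaged 27.7 ± 2.80 TPM in wild-type cells and 10.4 ± 0.837 TPM in the knockout (SD, n = 3 each). *Eomes* was closest to *Gmcl1* (0.939), *Necab2* (0.931) and *Gca* (0.926). Among the members themselves, *Hand1* was closest to *Hand2* (0.982) and to *Tbx2* (0.966), and *Msx1* to *Msx2* (0.929), while *Eomes* and *Msx2* had an r of -0.04.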

How the data were processed

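RNA of 17 cultures was sequenced from NEBNext Ultra libraries on an Illumina NovaSeq platform, and the table deposited by the authors holds TPM, which they computed from gene length and reads counted per gene; the submitters' processing notes name HISAT2 2.1.0, StringTie 1.3.6 and GRCm38.p6. The authors used DESeq2 on counts, which are not analysed here. Gene positions and exon lengths came from GENCODE M21 (GRCm38), which holds 54495 of the 54532 identifiers. Reads were recovered as TPM times exon length divided by a step per library, which gave whole numbers within 0.01 for 95.9% to 96.7% of genes above 0. Intervals from these reads cover counting error only. Promoters came from RefSeq.

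The 21871 genes that reached 1 TPM in 2 or more libraries were fitted on log2(TPM + 1) with limma 3.58.1 (R 4.3.3), with 6 group means, all libraries and a variance trend, and adjusted by Benjamini-Hochberg within each of 11 comparisons. The comparisons were knockout against wild-type at each day, the days against each other in each genotype, and the genotype difference in the changes from day 0. On simulated data with normal noise, 188 of 200 genes given a log2 change of 2 in knockout against wild-type cells at day 1 were recovered among 21871 genes. A further 8 unchanged genes were called. The changed genes were drawn from those with a mean log2(TPM + 1) above 2, so the recovery of genes of lower level was not tested. Tables and figures used Python 3.11.15, pandas 2.3.3, numpy 2.4.6 and matplotlib 3.10.9.

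The members and lists were chosen with earlier results of these data known. Named genes were all members, up to 4 called genes of largest change per list and comparison described, and the 3 protein-coding genes of highest r with each member above 5 TPM in 2 libraries; defining markers near 0 were named beyond this rule. *Tbx3*, *T* at its levels and *Gm33460* were also named after their values were seen. Some genes that this rule would name are not reported here. Alternatives were a pseudocount of 0.1, no filter, a filter at 5 TPM, quantile and equal-median scaling, voom on recovered reads, adjusted p alone, the libraries of a comparison alone, replicate number as a block and leaving out each library. Voom without a filter was added after seeing the data.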

Additional observations from a re-analysis of the deposited data

Results flagged for a closer look

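The response of *Msx1* to the first day of RA differed between the genotypes by -1.83 ± 0.22 on log2(TPM + 1) (adjusted p = 0.00115, limma), which is a test of the difference itself. It was not called with a pseudocount of 0.1 (-1.29, adjusted p = 0.0880) or with voom on the recovered reads (-1.09, adjusted p = 0.365). On log2(TPM + 1) *Msx1* rose by 3.49 in wild-type and by 1.67 in knockout cells over that day, 23.6-fold and 11.2-fold in mean TPM. In each genotype all 3 libraries of day 1 were above those of day 0. The day 0 values rest on 2 to 13 reads per library. With no groups of 4 or more libraries here, no library was examined as an outlier within its group.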

How the results depend on the processing

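Over 27 other settings, the 44 pairs of a member and a comparison with an unadjusted p under 0.05 kept their direction, and 26 of the 32 calls were made in every setting in which the member was tested. With a pseudocount of 0.1, the members called between genotypes numbered 1 at day 0 (0 in the reported fit; *Msx1*, -1.38) and 0 at day 3 (1), and 0 for the interaction from day 0 to day 1 (1). Quantile normalization gave 2 at day 1 (1) and 1 for the interaction from day 0 to day 3 (0; *Hand1*, 1.20). Adjusted p alone gave 2 at day 1 (*Msx2* added), as did voom without a filter (*Tbx5* added). Voom with and without the filter gave 5 from day 0 to day 1 in wild-type cells (3), and with the filter 0 for the interaction over that day. Leaving out each library in turn, the members called ranged from 0 to 1 at day 0, 1 to 1 at day 1 and 0 to 1 at day 3 between genotypes, from 2 to 4, 5 to 6 and 4 to 4 in wild-type cells (day 1 against 0, 3 against 0, 3 against 1), from 3 to 4, 6 to 7 and 6 to 7 in knockout cells, and 1 to 1 and 0 to 1 for the interactions. The single call at day 0 came without wild-type replicate 2 at day 0 (*Mixl1*), the loss at day 3 without wild-type replicate 2 at day 3, and the single call for the interaction to day 3 without wild-type replicate 3 at day 3 or knockout replicate 1 at day 0 (*Hand1*). Where 1 of the 2 wild-type libraries at day 0 was left out, the other was assumed to vary like the other groups. The cause of these changes was not tested. Setting the library medians equal changed the split over all genes, with 2804 higher and 2822 lower from day 0 to day 3 in wild-type cells (3522 and 2118 in the reported fit), 2134 and 2953 in knockout cells (3023 and 1759), and 187 and 175 at day 1 between genotypes (101 and 384), while the count of members called stayed within 1.5 times. Genes called over the table at day 0 numbered 379 without wild-type replicate 1 and 2249 without replicate 2 (668).

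Replicate numbers did not pair the samples, since deviations of same-numbered libraries correlated at -0.130 to 0.124 (median -0.0035, 40 pairs). With the replicate number as a block, the members called were 0, 1 and 1 between genotypes at day 0, 1 and 3, 3, 5 and 4 in wild-type and 4, 6 and 7 in knockout cells, and 1 and 0 for the interactions, as without it.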
